A study of Mus musculus with 6 samples.

Results

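Aldh1a3, Neurog3, Sox4, Sox11, Fev, Pax4, Hes1, Sox2, Pou5f1 and Nanog are genes of endocrine progenitors, of beta cells that have lost their identity, and of pluripotent cells. These 10 genes were taken by symbol from a table of 55536 genes and described in mouse islets with and without an alpha-cell deletion of Klf4. Polyadenylated RNA of whole islets was sequenced in 6 libraries from C57B1/6J mice, 3 per genotype. The control mice were Klf4+/+;Gcg-iCre and the knockout mice, titled Klf4-alphaKO, were Klf4fl/fl;Gcg-iCre. Both groups thus carried the Cre recombinase transgene, which is driven by glucagon regulatory sequence and acts in alpha cells, the glucagon-producing cells of the islet. The labels give no age, no sex, and no statement of whether islets of several mice were pooled. The series asks how KLF4 regulates gene expression in alpha cells in vivo, and the comparison below asks whether genes of earlier developmental states differ between the genotypes.

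In the embryonic pancreas, cells that briefly make the transcription factor NEUROG3 become endocrine. Notch signalling, through its effector HES1, represses Neurog3 and holds neighbouring cells in the progenitor state. SOX4, FEV and PAX4 act during or just after the NEUROG3 stage. ALDH1A3 is an enzyme that makes retinoic acid and is widely used as a marker of beta cells that have lost their identity. SOX2, OCT4 (encoded by Pou5f1) and NANOG form the core of the pluripotency network, and KLF4 is known for reprogramming somatic cells together with SOX2 and OCT4.

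No member of the set passed the test between genotypes, and the set divided by level. Of the 10 genes, 6 had a mean of at least 50 counts over the 6 libraries. The other 4, Sox2, Pax4, Nanog and Pou5f1, lay below 50 mean counts, at 27.3, 1.33, 0.333 and 0. The genes tested numbered 7, since Pax4, Nanog and Pou5f1 did not reach 10 counts in total. In the DESeq2 Wald test with Benjamini-Hochberg adjustment over all genes, 0 of the 7 had an adjusted p under 0.05, against 2.19% of all 17797 genes tested (1.53% higher and 0.657% lower in the knockout libraries). At an unadjusted p under 0.05 there were 3 (Hes1, Sox4 and Fev), where 11.5% of all genes lay below that value. The edgeR quasi-likelihood test called 0 of the 7 at an adjusted p under 0.05 (background 0.115%), with 3 at an unadjusted p under 0.05 (Hes1, Sox4 and Sox2; background 9.48%). The libraries of the genotypes did not overlap for 2 of the 7, Hes1 and Sox2, against 17.3% of all genes tested. Hes1 came closest to the threshold and was lower in the knockout libraries.

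KLF4 binds CACCC boxes, so the 250 bases before the start of each member were searched for CACCC on both strands (GGGTG on the strand of the gene). RefSeq promoters (build GRCm38.p6) were at hand for 7 members, with 9 start sites in all, and 5 of the 9 stretches had a match, each in a different member. Of all 32851 promoters in the same table, 52.0% held the letters in the same stretch, so a match is common. The stretches of the detected members with a match are shown to place the box; capitals mark it (1 box each in Neurog3 and Fev, 2 in Sox11), and each is read 5′ to 3′ along the strand of its gene.
Neurog3 (chr10:62132926-62132956, plus strand): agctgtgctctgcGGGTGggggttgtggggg
Fev (chr1:74885559-74885589, minus strand): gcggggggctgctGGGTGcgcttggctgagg
Sox11 (chr12:27342737-27342767, minus strand): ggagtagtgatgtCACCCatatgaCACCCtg
Sox4 and Sox2, by contrast, had 0 matches. Pou5f1 had 5 at its upstream start and 0 at its other start, and Nanog had 3 at its downstream start and 0 at its upstream start. A match describes letters only, and no binding was measured in these libraries.

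Library totals ran from 101277200 to 110243918 counts. Low values were mostly even: among values from 1 to 19, 83.9% to 87.0% were even in each library, against 53.0% to 54.7% among values of 1000 or more. How read pairs were counted is not given in the sources used here, so a low count may stand for fewer fragments than it states. For the targeted gene Klf4 the normalized count (the count divided by the size factor of its library) was 3148, 2879 and 2015 in the controls, given here and below in the order of replicates 1 to 3, against 2340, 2540 and 2277 in the knockouts. Its ranges overlapped (log2 fold change -0.17 ± 0.15 SE, DESeq2 adjusted p = 0.774), so these whole-islet counts did not separate the genotypes. The Klf4 log2 fold change was -0.04 without control replicate 1 (adjusted p = 0.964) and -0.34 without control replicate 3 (adjusted p = 0.00568). The insulin genes Ins1 and Ins2 held 16.8% to 18.6% of all counts and the glucagon gene Gcg 2.74% to 5.36%. The X-inactivation transcript Xist lay between 77938 and 108105 normalized counts in controls and between 12.4 and 30.2 in knockouts. The Y-linked gene Ddx3y had 0 counts in every control and 5599 to 6265 in knockouts, so sex and genotype cannot be told apart in any comparison here. In whole islets, fewer cells of a type and less RNA per cell also cannot be told apart. Summed markers of several cell types moved with genotype: the 7 alpha-cell genes ran from 4114496 to 5919920 normalized counts in controls and from 3048755 to 3745976 in knockouts, the 8 acinar genes from 539138 to 1086117 and from 1368006 to 1943204, and the 8 mesenchymal genes from 53144 to 69143 and from 97488 to 104359. The sums of the 6 proliferation genes (2186 to 3753 against 4422 to 4717) and of the 9 duct genes (47602 to 53895 against 54196 to 61016) separated too. Mki67 and Top2a of the former and Krt7 and Muc1 of the latter were higher in DESeq2 (1.53% of all genes tested rose). Only 2 of the 9 duct genes (22.2%, against 17.3% of all genes) had groups that did not overlap. The median log2 fold change of the duct genes was 0.035. The part of these shifts in the results below was not tested.

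**Figure D1:**
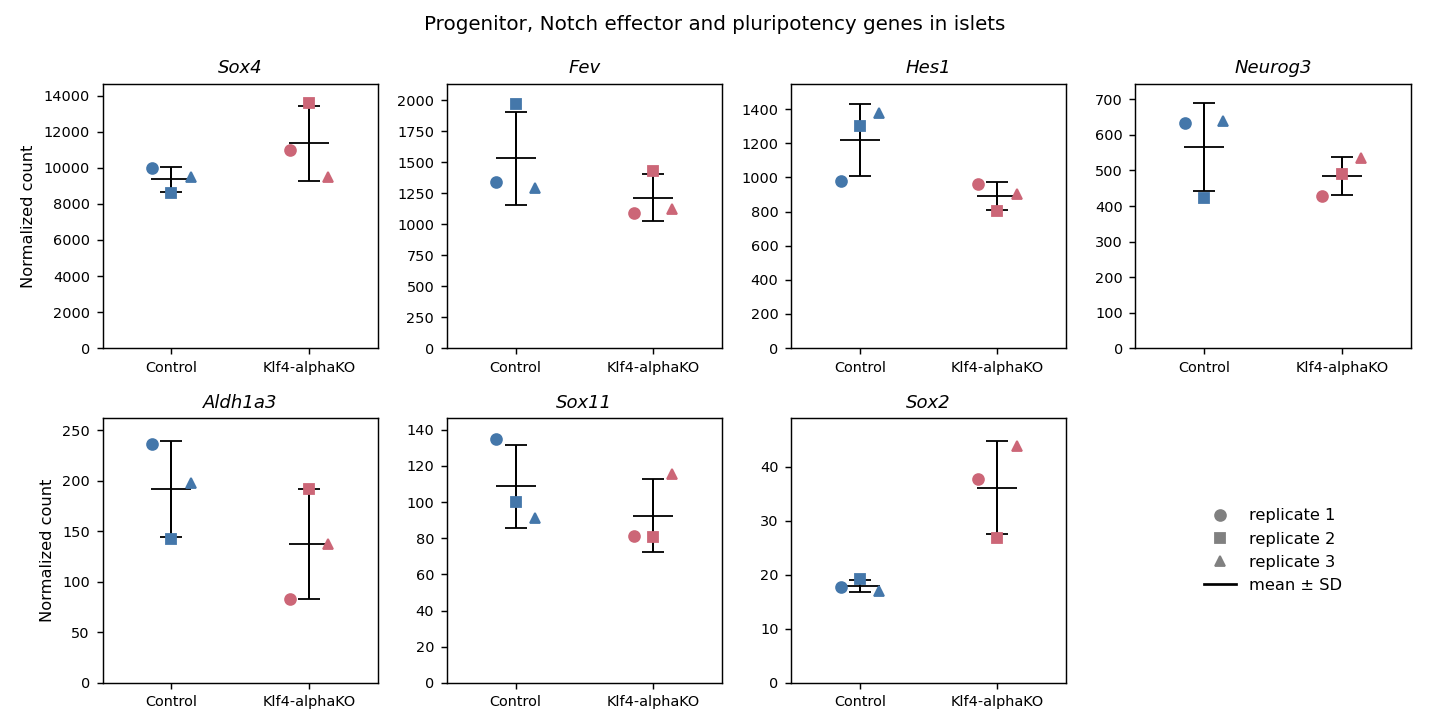
Normalized count (vertical axis, from 0) of the 7 detected genes in each control and Klf4-alphaKO library; symbols give the replicate number, bars the mean ± SD of 3 libraries. The genotypes separate for Hes1 and Sox2 and overlap for the other 5 genes.

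Levels of the members were compared as RPKM, that is counts per kilobase of merged exon scaled to the library total, since the genes differ in exon length from 1445 bases (Pax4) to 8311 bases (Sox11). Sox4 stood highest at a mean level of 20.7 RPKM over the 6 libraries (range 17.1 to 26.7), above 94.5% of the 30500 genes with any count. Fev followed at 8.12 RPKM (6.46 to 11.6), then Hes1 at 4.95 RPKM (3.71 to 6.30) and Neurog3 at 3.00 RPKM (2.40 to 3.73). The ranges of Sox4 and Fev did not overlap, nor did those of Fev and Hes1, while Hes1 and Neurog3 touched. Aldh1a3 lay well below these at 0.342 RPKM (0.173 to 0.504). Sox2 at 0.126 RPKM (0.0768 to 0.208) and Sox11 at 0.116 RPKM (0.0911 to 0.160) had overlapping ranges, and Aldh1a3 overlapped that of Sox2 as well. Neurog3, Sox4, Sox11 and Sox2 are single-exon genes in the annotation, and the other 6 have between 3 and 15 merged exons.

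**Figure D2:**
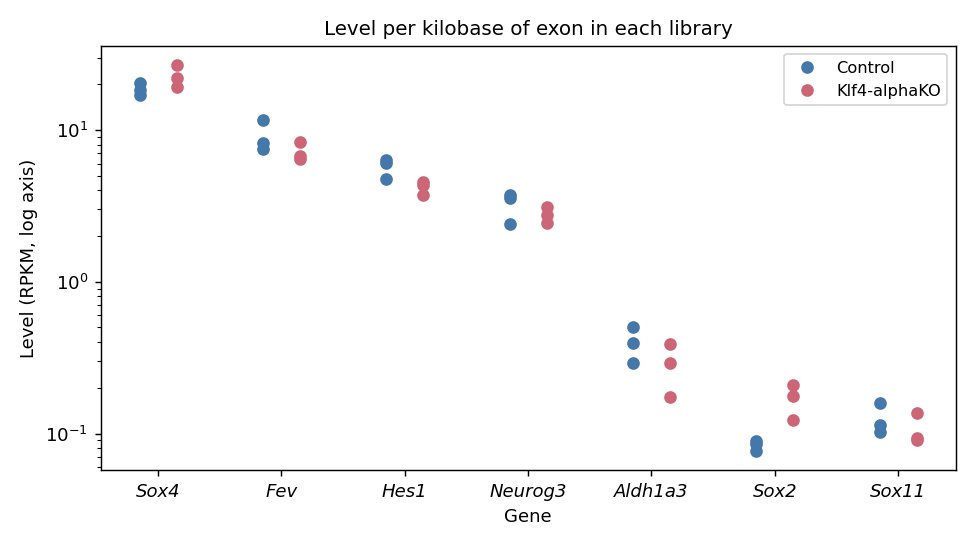
Level in RPKM (vertical log axis) of each detected gene in each library, by genotype. Sox4, Fev, Hes1 and Neurog3 lie above 2 RPKM in every library; Aldh1a3, Sox2 and Sox11 lie at or below 0.504 RPKM.

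Hes1 (ENSMUSG00000022528, chromosome 16, 30064384 to 30067796, plus strand, GRCm38) encodes the basic helix-loop-helix repressor that carries out much of Notch signalling. Its normalized counts were 981.9, 1300 and 1379 in the controls and 964.3, 802.4 and 903.1 in the knockouts. Every knockout library was below every control, although control replicate 1 and knockout replicate 1 were nearly level. Mean normalized counts were 1220 ± 210 and 890 ± 81.8 (SD, n = 3 per genotype). This was a log2 fold change of -0.46 ± 0.15 (SE), or a change of -27.1% with a 95% confidence interval from -40.3% to -10.9%. It did not pass over all genes in DESeq2 (adjusted p = 0.0735) or in edgeR (adjusted p = 0.355). Control replicate 1 decides this call: without it the log2 fold change was -0.59 and the DESeq2 adjusted p was 0.000749, where 2.49% of all genes tested passed. Over all 14 alternatives the adjusted p ran from 0.000749 to 0.391.

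Other genes of the Notch pathway gave no call. Of 31 ligands, receptors, modifying enzymes and target genes, 29 were given an adjusted p and 0 passed in DESeq2 or edgeR; 5 had an unadjusted p under 0.05 in DESeq2 (11.5% of all genes tested). Their median log2 fold change was 0.03, against -0.0061 over all genes tested, and 6 of the 29 (20.7%) had genotypes that did not overlap, close to the 17.3% of all genes. The most abundant were Ncstn, a subunit of gamma-secretase, with normalized counts of 17098 ± 1158 in the controls against 16244 ± 585 in the knockouts, and the receptor gene Notch1, with 10150 ± 623 against 10498 ± 304 (SD, n = 3 in every group). A few genes of this list are named after their values were seen. The Notch target gene Hey2 was at 686.4, 676.8 and 691.7 normalized counts in controls and at 542.1, 600.2 and 550.8 in knockouts, with groups that did not overlap (log2 fold change -0.28 ± 0.12 SE, DESeq2 adjusted p = 0.277). Nrarp, another target gene, differed by -0.39 ± 0.17 on the log2 scale (SE, DESeq2 adjusted p = 0.270), with groups that overlapped. The ligand gene Jag2 was at 4706, 7150 and 10308 normalized counts in controls and at 4546, 4550 and 4761 in knockouts, with overlapping groups (-0.68 ± 0.32 SE on the log2 scale, DESeq2 adjusted p = 0.362). Lfng, which encodes a fringe enzyme that modifies Notch receptors, was higher in every knockout library, at 0.42 ± 0.15 on the log2 scale (SE, DESeq2 adjusted p = 0.119).

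Neurog3 (ENSMUSG00000044312, chromosome 10, 62133090 to 62134763, plus strand), the master regulator of endocrine commitment, was measured in every library. Neurog3 stood at 634.8, 422.4 and 638.6 normalized counts in controls and at 426.9, 490.9 and 533.9 in knockouts. The knockout range lay inside the control range, because control replicate 2 had the lowest value of all 6 libraries. A log2 fold change of -0.22 ± 0.19 (SE) was estimated, which did not pass (DESeq2 adjusted p = 0.758) and whose 95% confidence interval spans -33.6% to 10.4%. It was -0.40 without control replicate 2 (adjusted p = 0.287) and -0.13 without control replicate 1 or control replicate 3. Neurog3 shares 273 bases of exon with Fam241b on the opposite strand, a gene at 1429 to 1650 normalized counts. The strand setting of the counting is not given in the sources used here, so the Neurog3 count is uncertain.

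Genes induced by or acting with NEUROG3 were counted as a list of 18, which includes Neurod1, Insm1, Rfx6 and Nkx2-2. Of the 16 given an adjusted p, 1 passed in DESeq2 (2.19% of all genes tested) and 0 in edgeR, and the median log2 fold change was -0.005 (all genes -0.0061). An unadjusted p under 0.05 was found for 5 of the 16 in DESeq2 (11.5% of all genes), and the genotypes did not overlap for 6 of them (37.5%, against 17.3%). The gene that passed was Tox3, a high-mobility-group box protein gene, which fell from a normalized count of 8845 ± 492 to 7341 ± 125 (SD, n = 3 per genotype). On the log2 scale it fell by 0.27 ± 0.07 (SE; adjusted p = 0.0155 in DESeq2 and 0.196 in edgeR). Tox3 did not pass without knockout replicate 1 or 3; its DESeq2 adjusted p with each library left out ran from 0.000785 to 0.183.

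Sox4 (ENSMUSG00000076431, chromosome 13, 28948919 to 28953713, minus strand), a SoxC transcription factor gene needed for endocrine differentiation, was the most abundant member. It was at 9991, 8598 and 9504 normalized counts in controls and at 10980, 13597 and 9494 in knockouts. Knockout replicate 2 was highest, while knockout replicate 3 lay within the control range. At 0.28 ± 0.12 (SE), the log2 fold change did not pass in DESeq2 (adjusted p = 0.306). Without knockout replicate 2 it was 0.13, with an adjusted p of 0.814. Sox4 shares 2616 exonic bases with Gm26735 on the opposite strand, a non-coding gene with 42 to 94 counts per library, so the Sox4 count is also uncertain.

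Sox11 (chromosome 12, 27334264 to 27342574, minus strand), another SoxC gene and one mainly of embryonic and neural tissue, was low in all libraries. Its 134.9, 99.8 and 91.2 normalized counts in controls and 81.2, 80.4 and 115.8 in knockouts overlapped. Between genotypes it differed by -0.23 ± 0.31 on the log2 scale (SE, DESeq2 adjusted p = 0.887), with a 95% confidence interval from -0.84 to 0.37. The difference was -0.05 without control replicate 1 and -0.43 without knockout replicate 3. The remaining SoxC gene, Sox12, had normalized counts of 3170 ± 185 in the controls against 2928 ± 152 in the knockouts (SD, n = 3 per genotype). In a list of 16 other Sox genes, 11 were given an adjusted p, 0 passed in DESeq2 (2.19% of all genes tested) or edgeR, and 2 had an unadjusted p under 0.05 in DESeq2 (11.5% of all genes).

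Fev (ENSMUSG00000055197, chromosome 1, 74881509 to 74885419, minus strand) encodes an ETS transcription factor of late endocrine progenitors and of serotonin neurons. Fev stood at 1339, 1965 and 1292 normalized counts in controls and at 1088, 1430 and 1121 in knockouts. Replicate 2 was the highest library of each genotype, and the knockout value of replicate 2 lay above 2 of the 3 controls. Its log2 fold change of -0.34 ± 0.17 (SE) did not pass in DESeq2 (adjusted p = 0.432), and was -0.12 without control replicate 2. Of 10 genes of serotonin synthesis and handling and of serotonin neurons, 7 were given an adjusted p and 1 passed in DESeq2 (2.19% of all genes tested), with a median log2 fold change of -0.22 (all genes -0.0061). In DESeq2 2 of the 7 had an unadjusted p under 0.05 (11.5% of all genes), and 2 (28.6%, against 17.3%) had groups that did not overlap. Maob, which encodes monoamine oxidase B, fell from a normalized count of 21833 ± 303 to 17749 ± 990 (SD, n = 3 per genotype), or by 0.30 ± 0.07 on the log2 scale (SE; adjusted p = 0.00222 in DESeq2 and 0.186 in edgeR). Maob lies on chromosome X and was lower in the libraries with Ddx3y counts, so sex and genotype cannot be told apart for it.

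Pax4 (chromosome 6, 28442334 to 28449353, minus strand), which directs progenitors toward beta and delta cells, had 0 counts in 5 of the 6 libraries and 8 counts in knockout replicate 3. Counts this low, in a single library, do not allow a comparison. In these libraries 3 counts, the limit that a count of 0 allows, equal 0.0272 to 0.0296 CPM (scaled by library total), for counting error only. If each fragment entered as a pair of counts, that limit would be 6 counts, or 0.0544 to 0.0592 CPM.

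**Figure D3:**
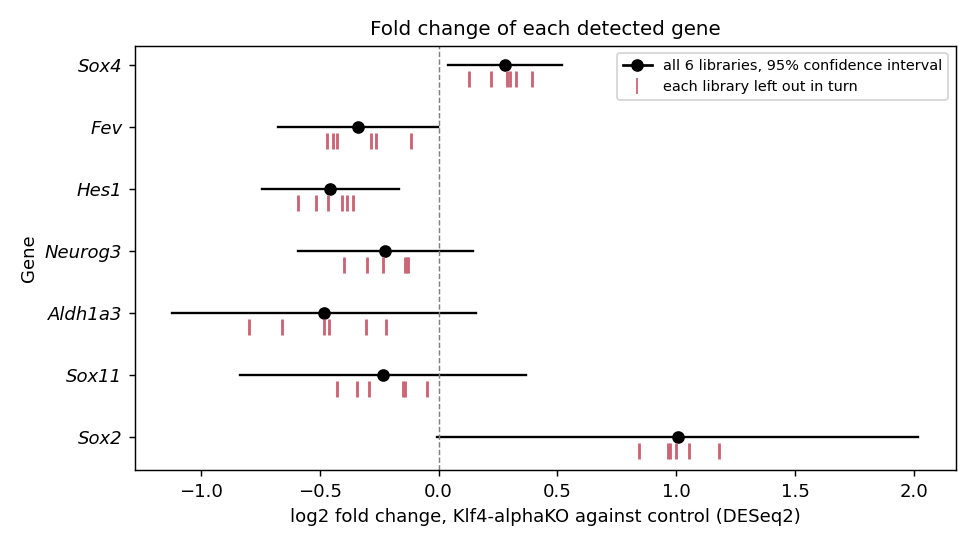
Log2 fold change of each detected gene, Klf4-alphaKO against control (horizontal axis), with its 95% confidence interval (black) and the values with each library left out in turn (red ticks). The sign held in all 6 leave-one-out fits for each of the 7 genes; the interval of Hes1 runs from -0.74 to -0.17 and that of Sox2 from -0.006 to 2.02.

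Aldh1a3 (ENSMUSG00000015134, chromosome 7, 66390890 to 66427517, minus strand), the marker of beta-cell dedifferentiation, was low in both genotypes, and its values gave no call. Aldh1a3 stood at 236.1, 142.1 and 197.3 normalized counts in controls and at 83.1, 191.8 and 137.7 in knockouts. The lowest library was knockout replicate 1, and the ranges overlapped. A log2 fold change of -0.48 ± 0.33 (SE) did not pass in DESeq2 (adjusted p = 0.646). The 95% confidence interval covers changes from -54.0% to 11.6%, and larger increases lie outside it. Without knockout replicate 1 the log2 fold change was -0.22, and without knockout replicate 2 it was -0.80. Of 12 other genes described in dedifferentiated beta cells, 11 were given an adjusted p and 1 rose in DESeq2 (1.53% of all genes tested), with a median log2 fold change of -0.003 (all genes -0.0061). Ldha, the lactate dehydrogenase gene normally kept low in beta cells, rose from a normalized count of 1751 ± 15.3 to 2249 ± 257 (SD, n = 3 per genotype), or by 0.36 ± 0.10 on the log2 scale (SE; adjusted p = 0.0314 in DESeq2 and 0.250 in edgeR). Ldha lost its call without control replicate 1 or 2 or knockout replicate 1 or 3, with DESeq2 adjusted p-values from 0.00472 to 0.329 when each library was left out.

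Several other genes of retinoic acid synthesis, breakdown and reception rose in the knockout libraries. Of 21 listed genes, 16 were given an adjusted p; 4 rose and 0 fell in DESeq2, where 1.53% of all genes tested rose, and 0 passed in edgeR. The median log2 fold change of the 16 was 0.09, against -0.0061 over all genes, and 7 (43.8%) had genotypes that did not overlap, against 17.3%. Aldh1a1, a retinaldehyde dehydrogenase gene like Aldh1a3, was at 263.8, 404.2 and 472.1 normalized counts in controls and at 834.9, 642.5 and 678.6 in knockouts. All knockout libraries were above all controls, with a log2 difference of 0.92 ± 0.21 (SE; adjusted p = 0.00163 in DESeq2 and 0.210 in edgeR). Aldh1a7, a close paralog of Aldh1a1, was at 31.7, 40.3 and 36.1 and at 162.4, 96.9 and 49.9 normalized counts (log2 fold change 1.52 ± 0.45 SE, DESeq2 adjusted p = 0.0416). Reads of the pair could be split between them, so both counts are uncertain, and Aldh1a7 passed in only 4 of 14 alternatives. Cyp26b1, which encodes an enzyme that degrades retinoic acid, was at 114.1, 144.0 and 224.9 normalized counts in controls and at 374.0, 264.0 and 485.0 in knockouts (log2 fold change 1.22 ± 0.29 SE, DESeq2 adjusted p = 0.00316). Rxra, a retinoid X receptor gene, rose from a normalized count of 6460 ± 778 to 8354 ± 406 (SD, n = 3 per genotype; log2 fold change 0.37 ± 0.10 SE, DESeq2 adjusted p = 0.0127). With each library left out in turn, the log2 fold changes ran from 0.71 to 1.11 for Aldh1a1, 0.99 to 1.54 for Cyp26b1, 0.31 to 0.47 for Rxra and 1.03 to 1.85 for Aldh1a7. In the same fits, each on 5 libraries, the DESeq2 adjusted p ran from 3.77e-05 to 0.111 for Aldh1a1, which failed without knockout replicate 1, and from 1.89e-05 to 0.141 for Cyp26b1, which passed only without control replicate 3 or knockout replicate 2. It ran from 4.75e-09 to 0.142 for Rxra, which passed only without control replicate 3, and from 0.00216 to 0.622 for Aldh1a7, which passed only without knockout replicate 3. The summed mesenchymal markers given above also separated the genotypes. Of the 8 genes, 5 were higher in DESeq2 (1.53% of all genes tested) and 3 passed in edgeR (0.115%). The part of the mesenchymal markers in the retinoic acid genes was not tested.

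**Figure D4:**
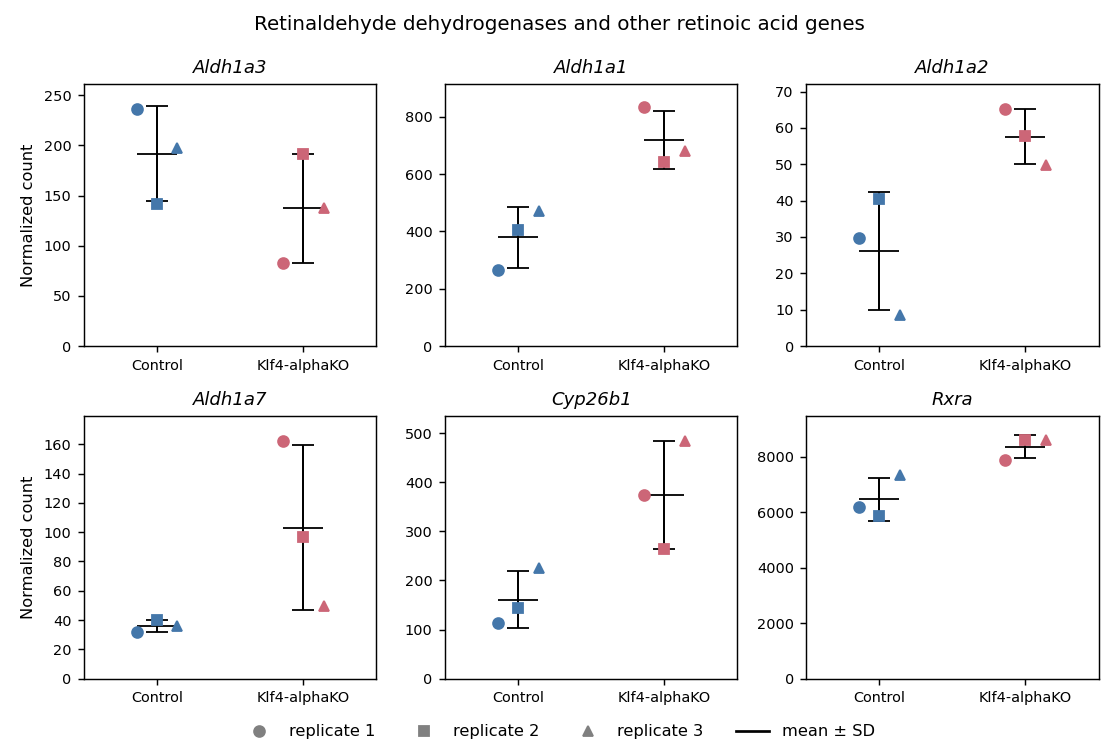
Normalized counts (vertical axis, from 0) of Aldh1a3 and of 5 other retinoic acid genes in each library; symbols give the replicate, bars the mean ± SD of 3 libraries. Aldh1a3 overlaps between genotypes, while each of Aldh1a1, Aldh1a2, Aldh1a7, Cyp26b1 and Rxra is higher in every Klf4-alphaKO library than in any control; Aldh1a2 did not pass the test (DESeq2 adjusted p = 0.383) and was added after its values were seen.

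Among the core pluripotency genes only Sox2 had more than 2 counts in any library. Sox2 (ENSMUSG00000074637, chromosome 3, 34650405 to 34652461, plus strand) had 18, 20 and 16 raw counts in the controls and 40, 26 and 44 in the knockouts. All 6 values are even, so they may stand for fewer fragments. Every knockout library was above every control, with mean normalized counts of 18.0 ± 1.12 and 36.2 ± 8.66 (SD, n = 3 per genotype). A log2 fold change of 1.01 ± 0.52 (SE) did not pass in DESeq2 (adjusted p = 0.438) or edgeR (adjusted p = 0.463). Sox2ot, the non-coding gene in which Sox2 lies on the same strand, shares no annotated exon with it and had 10 to 38 counts per library, with groups that overlapped. Sox2 is also a gene of Schwann cells and other glia. The 9 Schwann cell markers summed to 7009 to 8556 normalized counts in controls and 6657 to 7848 in knockouts. Of the 9, 0 passed in DESeq2 (2.19% of all genes tested) or edgeR (0.115%). None had an unadjusted p under 0.05 in DESeq2 (11.5% of all genes). The part of these cells in the Sox2 values was not tested.

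Pou5f1 (chromosome 17, 35506018 to 35510772, plus strand) had 0 counts in all 6 libraries, which allows up to 3 counts per library, or 0.0296 CPM in the shallowest (6 counts, or 0.0592 CPM, if fragments entered as pairs). Nanog (chromosome 6, 122707489 to 122714633, plus strand) had 2 counts in control replicate 2 and 0 in the other 5 libraries. Of 26 other genes of the pluripotency network, 6 (Zfp42, Dppa4, Dppa5a, Nr0b1, Utf1 and Fgf4) were at 0 in every library, and 16 were given an adjusted p. None of the 16 passed in DESeq2 or edgeR, 3 had an unadjusted p under 0.05 in DESeq2 (11.5% of all genes tested), and their median log2 fold change was -0.06. The genotypes did not overlap for 2 of the 16 (12.5%), against 17.3% of all genes. The most abundant were Lifr and Il6st, receptor genes of the leukaemia inhibitory factor pathway that many tissues express, with normalized counts of 19781 ± 3067 and 21449 ± 6413 in the controls against 22206 ± 1787 and 17366 ± 140 in the knockouts (SD, n = 3 per genotype). Prdm14, a germ-cell and pluripotency regulator gene named after its values were seen, also had groups that did not overlap. It was at 19.8, 21.1 and 23.3 normalized counts in controls and at 54.8, 35.1 and 65.9 in knockouts. Its log2 fold change of 1.28 ± 0.47 (SE) did not pass in DESeq2 (adjusted p = 0.153). Raw counts of Prdm14 were 20, 22 and 22 in controls and 58, 34 and 66 in knockouts, with a mean of 37. All 6 are even, so they may stand for fewer fragments.

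Of 18 transcription factor genes of the earlier, multipotent pancreatic progenitor, 17 were given an adjusted p. In DESeq2 1 rose and 1 fell, where 2.19% of all genes tested passed, and 0 passed in edgeR; the median log2 fold change was 0.04 (all genes -0.0061), and 5 (29.4%, against 17.3%) had genotypes that did not overlap. Ptf1a, a progenitor gene that stays on in acinar cells, was at 29.8, 63.4 and 44.6 normalized counts in controls and at 126.6, 119.6 and 103.8 in knockouts (log2 fold change 1.34 ± 0.35 SE, DESeq2 adjusted p = 0.0122; edgeR adjusted p = 0.219). All 8 acinar markers, Ptf1a among them, were higher in every knockout library than in any control (17.3% of all genes did not overlap). Of the 8, only Ptf1a itself passed in DESeq2, and 0 passed in edgeR. The part of the acinar markers in the Ptf1a difference was not tested. Nkx6-1, kept on in beta cells, fell from a normalized count of 58719 ± 2189 to 50186 ± 1792 (SD, n = 3 per genotype), or by 0.23 ± 0.07 on the log2 scale (SE; adjusted p = 0.0314 in DESeq2 and 0.361 in edgeR). With each library left out, the DESeq2 adjusted p of Ptf1a ran from 0.00104 to 0.2 and missed the threshold when any of the knockout replicates was left out. That of Nkx6-1 ran from 0.000184 to 0.348 and failed without control replicate 1 or 2 or knockout replicate 1 or 3.

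Genes that respond quickly to cell handling and to steroid hormones were followed beside Hes1. The 13 immediate early genes summed to 65674 to 93960 normalized counts in controls and 89040 to 101890 in knockouts, ranges that overlapped, and 1 of 13 rose in DESeq2 (1.53% of all genes tested), Fosb, at 0.51 ± 0.12 on the log2 scale (SE; adjusted p = 0.00286 in DESeq2 and 0.187 in edgeR). Of 11 glucocorticoid-responsive genes 5 rose and 0 fell in DESeq2 (1.53% of all genes tested rose), and 2, Zbtb16 and Mt2, passed in edgeR (0.115% of all genes). Zbtb16 rose from 310 ± 107 to 2581 ± 387 normalized counts (SD, n = 3 per genotype; edgeR adjusted p = 0.00142). The metallothionein gene Mt2 rose from 6936 ± 422 to 10762 ± 1245 (adjusted p = 6.64e-08 in DESeq2 and 0.0496 in edgeR), and missed the threshold in edgeR with halved counts (adjusted p = 0.0542). Fkbp5, at 11549 ± 2373 and 19561 ± 1184, rose in DESeq2 (adjusted p = 1.42e-06) and did not pass in edgeR (adjusted p = 0.114). The 11 genes summed to 83038 to 89867 normalized counts in controls and 105069 to 113295 in knockouts. The part of these genes in the Hes1 values was not tested.

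Genes whose pattern over the 6 libraries was nearest to a member were sought among 15811 genes by the distance between standardized log2 values. For Hes1 they were Dnajc8, Acsl3 and Grin2d, at distances of 0.215, 0.265 and 0.312. For Fev they were Zfp943, Myrf and Gm9385 (0.194, 0.230 and 0.260), and for Sox4 they were Pfkfb4, Esam and Nyap2 (0.262, 0.293 and 0.308). Neurog3 lay nearest to Rlf, Mrps10 and Rapgef6 (0.351, 0.408 and 0.417), and Aldh1a3 to Ugp2, Arhgef4 and Asb6 (0.407, 0.437 and 0.492). The nearest genes to Sox11 were Gm26534, Snx16 and Zfat (0.329, 0.329 and 0.348). These distances rest on 6 libraries and are given as a description.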

How the data were processed

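Polyadenylated RNA of whole islets was sequenced in 3 control and 3 knockout libraries, grouped by sample title. The authors deposited a table of counts per gene, not normalized. Per the submitters' processing notes, FastQC, STAR, featureCounts, DESeq2 and the build mm10 were used; versions and the strand setting are not given in the sources used here. All 55536 gene identifiers and symbols match GENCODE M21 (GRCm38), which gave coordinates and exon lengths, and 0 columns were left unused.

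The series' design names DESeq2 without batch correction, which was the test here: DESeq2 1.42.0 in R 4.3.3, median-of-ratios size factors, genotype as the only term, genes with at least 10 counts in total, Wald test, and a Benjamini-Hochberg adjusted p of 0.05 over all genes. Intervals are 95% Wald intervals. Alternatives were edgeR 4.0.16 (quasi-likelihood, TMM), TMM factors in DESeq2, no filter, at least 10 counts in at least 3 libraries, no independent filtering, leaving out each library, a block for the replicate number and, chosen after the data were seen, counts halved in DESeq2 and in edgeR. On simulated data with 200 genes changed 2-fold among 24400, DESeq2 recovered 85% with 22.0% of its calls false, and edgeR 78% with 9.3% false. The 200 genes were drawn from those with a mean of at least 50 counts. These shares therefore do not cover smaller changes, or genes of lower count such as Sox2.

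The members and lists were chosen with earlier results of these data known. Named by rule are all members, Klf4, up to 4 called genes per list by absolute log2 fold change (the 2 most abundant where none was called), and 3 genes of nearest pattern for each of the 6 members averaging 50 or more normalized counts. Distances used log2(normalized count + 1). Further genes were named after their values were seen, among them Hey2, Nrarp, Jag2, Lfng, Aldh1a2, Prdm14, Sox2ot, Xist and Ddx3y. Within-group library pairs differed by a chi-square of 40.0 to 120.0 per degree of freedom over 15811 genes, so no library was a copy of another. The labels do not say that libraries came from separate animals, so p-values measure the spread between these samples, which may be technical.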

Additional observations from a re-analysis of the deposited data

How the results depend on the processing

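Of the 98 values of the 7 tested members under 14 alternatives, 97 kept their sign and gave no call. The exception was Hes1 without control replicate 1, which passed. Sox2 was given no adjusted p without control replicate 1 or 3 or with the replicate block, so no call was possible there. The number of members past the threshold was 0 to 1 when each library was left out and 0 under the other alternatives. The number of genes past the threshold was 389; it was 29 in edgeR, 26 in edgeR with halved counts, and 153 to 952 with each library left out, lowest without knockout replicate 1 and highest without control replicate 3. Of the genes in the lists around the members, 15 passed; 2 did in edgeR, 1 in edgeR with halved counts, and 7 to 21 with each library left out. For these shifts the cause was not tested. With each library left out, Klf4 ran from -0.34 (without control replicate 3, its only call) to -0.04 (without control replicate 1). The gene lost in edgeR with halved counts was Mt2. Neither Notch1 (0.05) nor Sox13 (-0.05) passed, and with libraries left out they ran from -0.002 to 0.076 and from -0.12 to 0.04, both turning sign without control replicate 2. The 294 values of the other named genes include those of genes that had no call to lose, such as Klf4 and Notch1. Calls were lost in 59 values, 12 of them in edgeR and 28 with a library left out.

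A replicate block in DESeq2 gave 405 genes past the threshold, 0 of them members and 15 in the surrounding lists. Hes1 had a log2 fold change of -0.45 with an adjusted p of 0.152 there, and Sox2 was given no adjusted p. Ptf1a, Nkx6-1, Aldh1a7 and Ldha lost their call, with adjusted p-values of 0.0571, 0.0573, 0.162 and 0.058. Same-numbered libraries shared only a number: after subtraction of the group means, same-numbered pairs correlated at -0.048, -0.059 and 0.010 over 15811 genes, and not every library correlated best with its own number. Depth limits the statements on Sox2, Pax4, Nanog, Pou5f1 and Prdm14, where counts are few and mostly even.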
